A study of Mus musculus with 6 samples.

Results

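Jak1, Jak2, Jak3, Tyk2, Stat3, Stat5a, Stat5b, Stat6, Pim1 and Cish are 10 genes of cytokine signalling, chosen by name and found by their RefSeq accessions. All 10 had exactly 1 row among the 13177 rows of the count table. The libraries came from helper T lymphocytes of mice, labelled CD4+ T-cells and isolated with magnetic beads. The 8 h group (3 libraries) was collected 8 h after transfection with a synthetic oligonucleotide of miR-155. The control group (3 libraries) is described as zero hour, and its treatment label names the same oligonucleotide as that of the 8 h group. No library was collected at 8 h without the oligonucleotide, so exposure and time cannot be told apart. The cell type label reads CD4+ for all 6 libraries, while the description of the 8 h libraries reads CD5+. The labels give no strain, sex or age and do not state separate animals or cultures. The p-values thus rest on the variation among these 3 libraries a group, which edgeR pooled over the tested rows. That variation may be technical.

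Cytokine receptors carry no kinase of their own and rely on JAK kinases bound to their tails. After a cytokine binds, the JAKs phosphorylate the receptor and then STAT proteins, which pair and move to the nucleus to switch on genes. In T cells, JAK1 and JAK3 serve interleukin 2 and its relatives through STAT5, STAT6 serves interleukin 4, and STAT3 serves interleukins 6 and 21. Cish and Pim1 are well known targets of STAT5. Cish encodes a protein of the SOCS family that restrains cytokine and T cell receptor signals, and Pim1 encodes a kinase that favours growth and survival.

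The sequences shown here are the miR-155 strands, their matches in these genes, and the Cish promoter. A microRNA lowers target mRNAs mainly through pairing of its seed, bases 2 to 8, with sites in 3' untranslated regions (3' UTRs). The mature strands from RefSeq (GRCm38.p6, chromosome 16, plus strand) are shown with the seed in capitals.
mmu-miR-155-5p, chr16:84714143-84714165: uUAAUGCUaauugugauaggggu
mmu-miR-155-3p, chr16:84714182-84714202: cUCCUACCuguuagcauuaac
The match to the 5p seed, AGCATTA, was absent from the 3' UTR of all 10 transcripts in GENCODE M21 and from the longest annotated 3' UTR of each of these genes, whereas 8.61% of 21173 genes had it in their longest 3' UTR. Outside the 3' UTRs it was found once in the coding sequence of Jak1 and once in that of Jak2. The match to the 3p seed, GGTAGGA, was found once, in the 3' UTR of Stat5b, against 7.12% of genes with it. Each match stands in capitals in 30 bases of transcript sequence (GRCm38), and the coordinates are those of the match itself.
Jak1, coding, minus strand, chr4:101177591-101177597: agtctgtggtcAGCATTAacaaacaggaca
Jak2, coding, plus strand, chr19:29296624-29296630: atcctggcattAGCATTAcagttctaccga
Stat5b, 3' UTR, minus strand, chr11:100781971-100781977: gaggattaggtGGTAGGAatgggacctgca
STAT dimers bind the palindrome TTCNNNGAA, which reads the same on both strands. Promoter windows from 250 bases before to 50 after the gene start (RefSeq, GRCm38.p6) were searched for it, 13 windows for the 10 genes. Only the window of Cish held it, with 2 copies (capitals) that lie 2 bases apart, the first beginning at position 251 of the window. That base, 107296659, is the RefSeq start of Cish, so both copies lie at or just after the start and not before it. Of all 32851 windows, 8.30% held at least 1 copy and 0.457% at least 2. A match is a description of the letters, and binding was not measured.
Cish, plus strand, chr9:107296409-107296708: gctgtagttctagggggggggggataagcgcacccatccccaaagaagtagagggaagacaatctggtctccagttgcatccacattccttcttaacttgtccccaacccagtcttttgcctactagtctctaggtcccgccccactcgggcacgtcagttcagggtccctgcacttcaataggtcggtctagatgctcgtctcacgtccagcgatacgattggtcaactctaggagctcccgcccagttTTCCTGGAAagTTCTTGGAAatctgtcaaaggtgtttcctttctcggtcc

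Summed counts lay between 6243803 and 13675127 in the 8 h libraries and between 4564010 and 12303358 in the controls, so that 1 count was worth 0.0731 to 0.219 CPM (the count divided by the summed count of its library and put on the usual per-megaread scale). The counting intervals given below are exact Poisson intervals that cover counting error only. Between libraries, Pearson's r of log2 CPM across the 8308 tested rows averaged 0.457 within a group and 0.445 between groups, a description across genes. Cd4 had 5 to 9 counts at 8 h and 6 to 10 in controls, Actb 3 to 5 against 1 to 4, and Gapdh 1 to 11 against 2 in each control, so whether a row holds the ordinary count of its gene is uncertain. Of 37 marker genes 34 were in the table. Summed markers of CD8 T, cytotoxic and natural killer cells (9 genes) ranged from 268 to 431 CPM at 8 h and from 1451 to 4200 CPM in controls. Most of that sum came from Gzmb, Gzma and Nkg7, while the means of Cd8a (5.59 ± 5.49 CPM at 8 h and 3.44 ± 2.40 CPM in controls), Cd8b1 (25.6 ± 30.5 and 15.1 ± 15.8 CPM) and Ncr1 (6.06 ± 9.08 and 3.72 ± 3.16 CPM) were higher at 8 h, with overlapping groups (SD, n = 3 each). Those of erythroid cells and platelets (6 genes) ranged from 3.04 to 10.8 CPM at 8 h and from 23.4 to 117 CPM in controls, and myeloid markers (6 genes) from 12.4 to 18.6 against 20.8 to 74.5 CPM. B cell markers (5 genes) ranged from 42.8 to 147 CPM at 8 h and from 23.4 to 75.6 CPM in controls. The 8 matched genes of the CD4 T cell list ranged from 4998 to 13720 against 2914 to 20775 CPM. Apart from Cd4, these genes (Cd3d, Cd3e, Cd3g, Cd5, Cd2, Thy1 and Lck) are not particular to CD4 T cells. Cd4 itself lay between 0.658 and 1.31 CPM, so this sum does not show that the cells were CD4+. No marker was at 0 in every library, and those at 0 in part of them included Klrb1c, Adgre1, Alas2 and Pf4 at 8 h and Csf1r and Pf4 in controls. The part of other cell types in the results on JAK and STAT genes was not tested.

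Cish and Tyk2 gave most of the counts of the 10 genes. Together they made up 79.4%, 56.9% and 95.8% of the members' summed counts in 8 h replicates 1 to 3 and 83.1%, 77.1% and 58.0% in control replicates 1 to 3. The 10 genes together took 47.8, 29.8 and 570 CPM at 8 h and 54.2, 75.6 and 78.6 CPM in controls. The high sum of 8 h replicate 3 came from Cish and Tyk2. On the scale of CPM per kilobase of the row's transcript, Cish averaged 33.0 over the 6 libraries (range 2.39 to 157), Tyk2 6.41 (0.364 to 20.4), Jak2 1.20 (0.125 to 2.74), Stat6 0.700 (0.348 to 1.68) and Jak3 0.534 (0.205 to 1.60). Pim1 averaged 0.454 CPM per kilobase (0.178 to 1.03), Stat3 0.382 (0.0807 to 0.907), Stat5a 0.335 (0.0650 to 0.547), Stat5b 0.252 (0.122 to 0.434) and Jak1 0.194 (0.0955 to 0.282). Each neighbouring pair in that order had overlapping ranges over the libraries, so no neighbours in the order differed beyond their spread. Jak1, with the lowest average, lay below Cish in every library. Per kilobase the highest member was Cish in all 8 h libraries and in control replicate 2, and Tyk2 in control replicates 1 and 3.

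**Figure D1:**
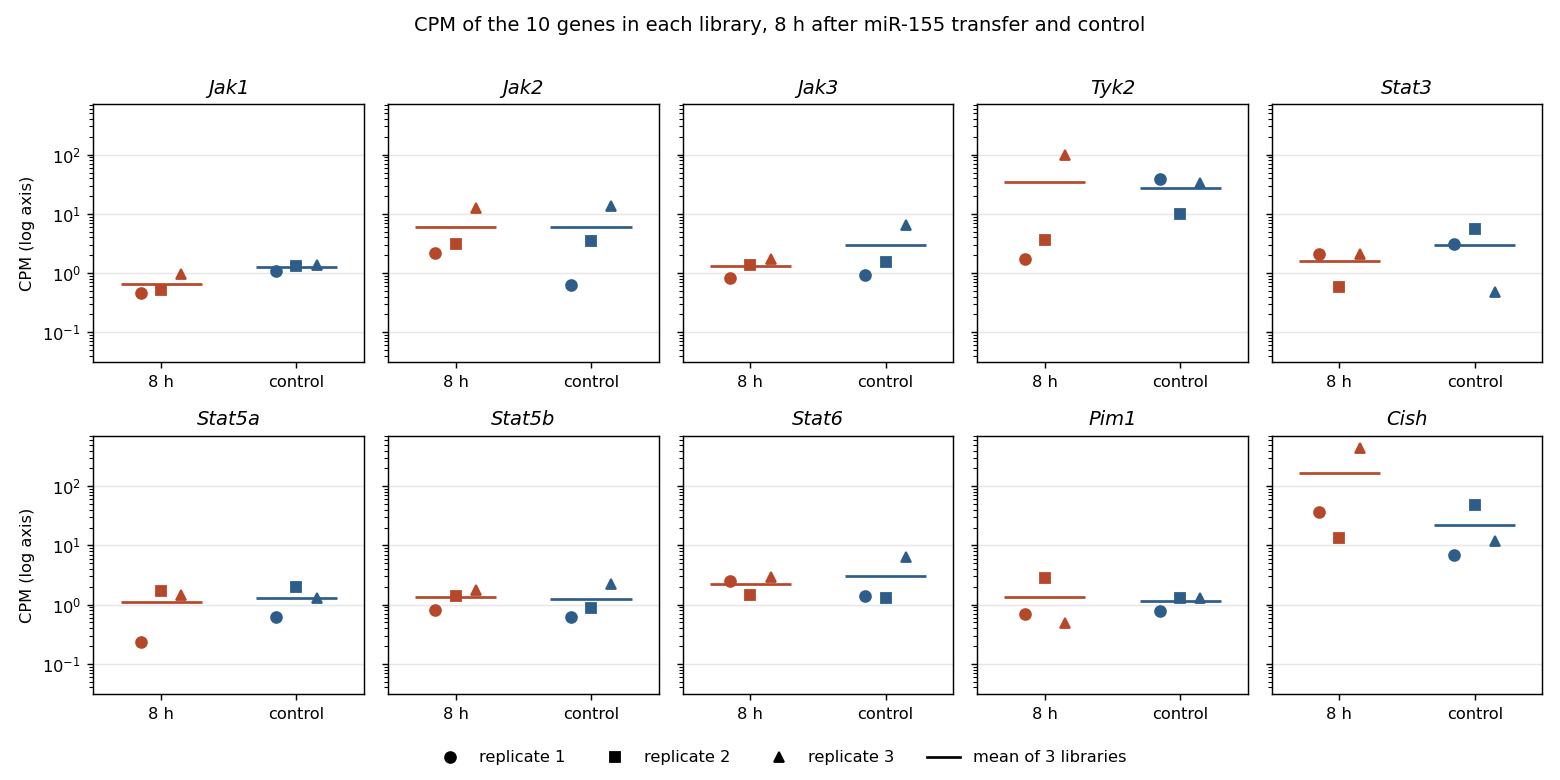
CPM of each of the 10 genes on a log axis, with the 3 libraries collected at 8 h left of the 3 controls. Symbols mark the replicate and horizontal lines the group means. Cish reached 447 CPM and Tyk2 98.5 CPM in 8 h replicate 3, all 8 h values of Jak1 lay under its control values, and the groups overlap for the other 9 genes.

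The comparison sets the cells collected after the miR-155 transfection against the zero-hour cells, gene by gene. Cish had the largest difference in mean level and Jak1 alone had groups that did not overlap, but no member passed the test. The low-count filter, which asked for at least 1.33 CPM in 3 libraries, kept 8 of the 10 and set aside Jak1 and Pim1. edgeR's quasi-likelihood test called 0 of the 8 tested members at an adjusted p under 0.05, and 0 had an unadjusted p under 0.05. The background was 0% of the 8308 tested rows called and 8.53% at an unadjusted p under 0.05. DESeq2's Wald test called 0 of the 4 members to which it gave an adjusted p, against 6.06% of all rows with one. It put 1 of the 8 tested members, Cish, at an unadjusted p under 0.05, against 1371 of all 8308 tested rows. The newer form of the quasi-likelihood fit and limma-voom called 0 members, with 0 at an unadjusted p under 0.05. Of all 8308 tested rows, 984 and 400 were under that level in these fits. The median log2 fold change of the 8 tested members was -0.23, beside 0.06 over all tested rows. In a fit of every row without a filter, 3 of the 10 members lay above 0 and 7 below, with a median of -0.23 beside 0.11 over all 13177 rows.

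Among the JAK kinases, the lead value was that of Tyk2, the kinase of interferon and interleukin 12 receptors (chromosome 9, 21104068 to 21131393, GRCm38). It had 15, 49 and 615 counts (1.76, 3.58 and 98.5 CPM) in 8 h replicates 1 to 3, against 247, 45 and 416 counts (38.3, 9.86 and 33.8 CPM) in control replicates 1 to 3. The 8 h libraries split, since replicate 3 lay above every control while the other 8 h libraries lay below every control. The log2 fold change was 0.05 ± 1.70 (SE, 95% interval -3.29 to 3.39, edgeR adjusted p = 0.997). Without 8 h replicate 3 it was -3.44 (edgeR adjusted p = 0.672), and without control replicate 2 it was -0.39. The transcript of Tyk2 shared no 50-base word, the read length, with transcripts of other genes in GENCODE M21.

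Jak2, the kinase of single-chain cytokine receptors and of the interferon gamma receptor (chromosome 19, 29251803 to 29313095), had 19, 42 and 79 counts (2.23, 3.07 and 12.7 CPM) at 8 h, against 4, 16 and 167 counts (0.620, 3.51 and 13.6 CPM) in controls. Replicate 3 was the highest library of both groups, and the groups overlapped. Mean levels were 5.98 ± 5.79 CPM at 8 h and 5.90 ± 6.80 CPM in controls (SD, n = 3 each). The log2 fold change was -0.19 ± 1.58 (SE) with all libraries and 1.55 without control replicate 3, with edgeR adjusted p of 0.984 and 0.852. It was -1.23 without 8 h replicate 3.

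Jak3, which pairs with the common gamma chain of the interleukin 2 family (chromosome 8, 71676383 to 71690577), had 7, 19 and 11 counts (0.820, 1.39 and 1.76 CPM) at 8 h, against 6, 7 and 79 counts (0.930, 1.53 and 6.42 CPM) in controls. Control replicate 3 stood above the other 5 libraries, which lay within 0.820 to 1.76 CPM. The log2 fold change was -1.34 ± 1.26 (SE, 95% interval -3.81 to 1.14), the lowest among the tested members (edgeR adjusted p = 0.788). Without control replicate 3 the gene no longer passed the low-count filter.

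Jak1, which partners JAK3 and also serves interferon and interleukin 6 receptors (chromosome 4, 101151974 to 101265282), had 4, 7 and 6 counts (0.469, 0.512 and 0.961 CPM) at 8 h, against 7, 6 and 17 counts (1.08, 1.31 and 1.38 CPM) in controls. Every 8 h library lay below every control in CPM, as it did for 4.29% of all 13177 rows, and 10.9% of rows had groups that did not overlap in either direction. Mean levels were 0.647 ± 0.273 CPM at 8 h and 1.26 ± 0.156 CPM in controls (SD, n = 3 each), and a two-sided exact permutation test gave p = 0.1, the lowest value possible with 3 libraries a group. Counting alone leaves wide limits at this depth: the 95% interval ran from 0.353 to 2.09 CPM in 8 h replicate 3 and from 0.436 to 2.23 CPM in control replicate 1. The filter left the gene untested, and a fit of every row gave a log2 fold change of -1.09 ± 0.97 (SE, edgeR adjusted p = 0.752). Its coding sequence holds an AGCATTA match, as does that of Jak2, both shown above. The share of all genes with such a coding match was not computed, and an effect of the match was not tested.

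Within a library, the kinases did not keep their proportions. Per kilobase, Jak2 stood at 4.71, 5.95 and 13.1 times Jak1 in 8 h replicates 1 to 3 and at 0.567, 2.64 and 9.74 times Jak1 in control replicates 1 to 3. Tyk2 stood at 3.81, 7.11 and 104 times Jak1 at 8 h and at 35.9, 7.62 and 24.9 times Jak1 in controls. Both ratios overlapped between the groups.

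The STAT factors among the 10 genes (Stat3, Stat5a, Stat5b and Stat6) were all low, with 2 to 78 counts in any library. Stat6, the interleukin 4 factor (chromosome 10, 127642955 to 127660987), had 21, 20 and 18 counts (2.46, 1.46 and 2.88 CPM) at 8 h, against 9, 6 and 78 counts (1.39, 1.31 and 6.34 CPM) in controls. As for Jak3, control replicate 3 was the highest library, and the 8 h libraries lay between the controls. The log2 fold change was -0.61 ± 1.32 (SE, edgeR adjusted p = 0.93) and 0.66 without control replicate 3.

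Stat3, the factor of interleukins 6 and 21 that drives Th17 cells (chromosome 11, 100886806 to 100939594), had 18, 8 and 13 counts (2.11, 0.585 and 2.08 CPM) at 8 h, against 20, 25 and 6 counts (3.10, 5.48 and 0.488 CPM) in controls. Here control replicate 3 was the lowest of the 6 libraries, the opposite of its place for Jak2, Jak3, Stat5b and Stat6. The log2 fold change of Stat3 was -0.97 ± 1.26 (SE, 95% interval -3.44 to 1.49, edgeR adjusted p = 0.855). It ran from -1.46 without control replicate 3 to -0.40 without control replicate 2.

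Stat5a and Stat5b are sister genes that carry the interleukin 2 signal, and they sit side by side with Stat3 on chromosome 11. Stat5a (100859351 to 100885169, plus strand) and Stat3 (minus strand) overlap at their ends by 72 bases in GENCODE M21. Of the 3556 words of 50 bases in the Stat5a transcript, 630 (17.7%) also occur in Stat5b or Stat3 on either strand, 608 of them in Stat5b, where shared words make up 12.1% of the transcript. How reads with several matches were treated is not given in the sources used here, so the split between the sister genes is uncertain. Stat5a had 2, 23 and 9 counts (0.234, 1.68 and 1.44 CPM) at 8 h, against 4, 9 and 16 counts (0.620, 1.97 and 1.30 CPM) in controls. Replicate 1 was the lowest library of each group. Stat5b (100780731 to 100859004, minus strand) had 7, 19 and 11 counts (0.820, 1.39 and 1.76 CPM) at 8 h, against 4, 4 and 27 counts (0.620, 0.876 and 2.19 CPM) in controls. On the log2 scale the fold change was -0.27 ± 1.09 (SE, 95% interval -2.40 to 1.87) for Stat5a and -0.07 ± 1.10 (SE, 95% interval -2.22 to 2.07) for Stat5b, with edgeR adjusted p of 0.965 and 0.994. These were the narrowest intervals among the tested members, and each includes 0. Without 8 h replicate 1 the values were 0.21 for Stat5a and 0.16 for Stat5b. Per kilobase, Stat5a stood at 0.401, 1.70 and 1.15 times Stat5b at 8 h and at 1.40, 3.16 and 0.832 times Stat5b in controls.

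**Figure D2:**
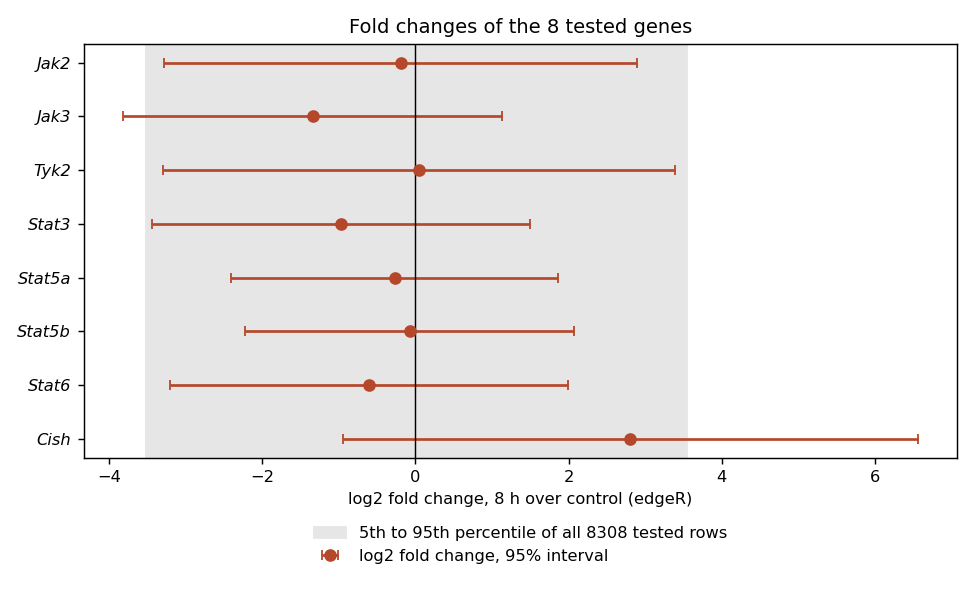
Log2 fold changes of the 8 tested genes, 8 h over control, with 95% intervals from edgeR (points and bars), against the 5th to 95th percentile of all 8308 tested rows (grey, -3.51 to 3.55). Every interval includes 0, from that of Stat5b (-2.22 to 2.07) to that of Cish (-0.94 to 6.56).

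Of the STAT target genes, Cish (chromosome 9, 107296659 to 107302784) had 309, 183 and 2794 counts (36.2, 13.4 and 447 CPM) in 8 h replicates 1 to 3, against 44, 221 and 145 counts (6.82, 48.4 and 11.8 CPM) in control replicates 1 to 3. Only 8 h replicate 3 lay above every control. Control replicate 2 lay above 8 h replicates 1 and 2, so the groups overlapped. Mean levels were 166 ± 244 CPM at 8 h and 22.3 ± 22.7 CPM in controls (SD, n = 3 each). This gave a log2 fold change of 2.81 ± 1.91 (SE, 95% interval -0.94 to 6.56, edgeR adjusted p = 0.685). Without 8 h replicate 3 the log2 fold change was 0.23, and without each of the other libraries in turn it ran from 2.41 to 3.83. In that library Stat5a and Stat5b had 9 and 11 counts, within the range of the other libraries. Per kilobase, Cish stood at 195, 10.1 and 393 times Stat5a at 8 h and at 13.9, 31.1 and 11.5 times Stat5a in controls. Of the 50-base words of the Cish transcript 15.8% also occur in another gene on either strand, mostly in the antisense gene Gm17041, and whether the counting used strand is not given in the sources used here.

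Pim1 (chromosome 17, 29490785 to 29496111) had 6, 38 and 3 counts (0.703, 2.78 and 0.480 CPM) at 8 h, against 5, 6 and 16 counts (0.775, 1.31 and 1.30 CPM) in controls. The highest library was 8 h replicate 2 and the other 8 h libraries lay below every control. Its counting interval of 1.97 to 3.81 CPM lay above that of 8 h replicate 3, 0.0991 to 1.40 CPM. The 2 targets thus peaked in different 8 h libraries, Pim1 in replicate 2 and Cish in replicate 3. The filter left Pim1 untested, and a fit of every row gave a log2 fold change of 0.19 ± 1.13 (SE, edgeR adjusted p = 0.978). An antisense gene, Gm26885, holds 10.6% of the 50-base words of Pim1.

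The exact two-sided permutation p of the 9 genes other than Jak1 lay between 0.5 and 1. The spread within groups differed among the members. From the lowest to the highest library, Tyk2 varied 56.1-fold and Cish 33.4-fold at 8 h, against 3.88-fold and 7.10-fold in controls, while Jak2 varied 5.68-fold at 8 h and 21.9-fold in controls. Jak1 varied 2.05-fold at 8 h and 1.27-fold in controls. Over the 4257 rows with a mean of 50 to 1000 counts and no library at 0, the median was 11.4-fold at 8 h and 11.0-fold in controls. Over the 3568 such rows with a mean of 5 to 50 counts it was 5.12-fold and 5.38-fold. In bulk RNA, fewer cells of a type and less RNA per cell cannot be told apart.

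**Figure D3:**
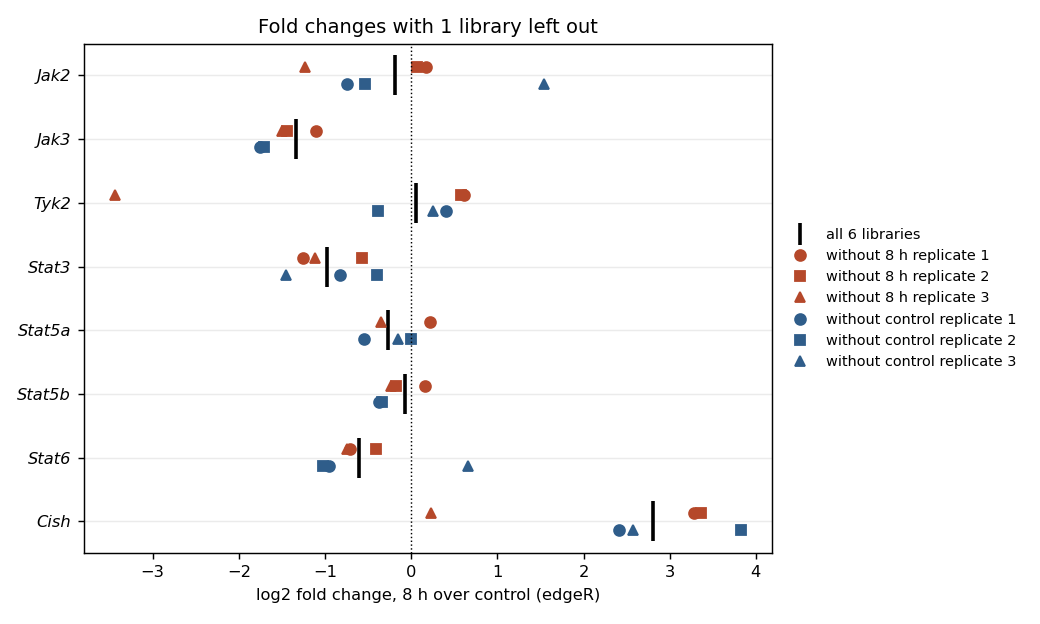
Log2 fold changes of the 8 tested genes, 8 h over control, with all 6 libraries (vertical bars) and with each library left out (symbols), where the gene still passed the filter. Cish ran from 0.23 to 3.83 and Tyk2 from -3.44 to 0.61, both lowest without 8 h replicate 3, and Jak2 ran from -1.23 to 1.55.

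Genes around these members in the pathway were taken from a list of 68 genes, of which 65 were in the table and 45 were tested. edgeR called 0 of the 45, with 2 at an unadjusted p under 0.05, Socs7 and Lta, both named after their values were seen, against 8.53% of all tested rows. DESeq2 called these 2 genes (adjusted p = 0.0223 and 0.0416) among 37 with an adjusted p, against 6.06% of all rows with one. Neither share of the list exceeded that of the whole table. The newer quasi-likelihood form and limma-voom called 0 of the 45, with 2 and 1 at an unadjusted p under 0.05. Of all 8308 tested rows, 984 and 400 were under that level in these fits. Log2 fold changes lay above 0 for 23 and below 0 for 22 genes, with a median of 0.07 beside 0.06 over all tested rows.

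Of other STATs, Stat4, the interleukin 12 factor, had 71, 17854 and 232 counts at 8 h, against 2859, 4025 and 902 counts in controls, a log2 fold change of -0.01 ± 2.06 (SE). Stat2, an interferon factor, had 2, 12 and 1 counts at 8 h, against 3, 3 and 5 counts in controls, and the filter left it untested. Of 24 receptor chains 16 were tested, 8 above and 8 below 0. Those with the highest mean CPM were Crlf2, the receptor chain for thymic stromal lymphopoietin, at 113 ± 99.7 CPM at 8 h and 274 ± 421 CPM in controls, and Il12rb1 at 152 ± 79.9 CPM at 8 h and 190 ± 296 CPM in controls (SD, n = 3 each). For both chains the 8 h libraries lay between the controls.

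Of 18 inhibitors 12 were tested, 8 above and 4 below 0, with a median log2 fold change of 0.59. The one with the highest mean CPM, Ptprc, the phosphatase CD45, had 551, 13381 and 79475 counts at 8 h, against 562, 1618 and 9001 counts in controls. Socs1, a direct inhibitor of JAKs, had 822, 6465 and 1027 counts at 8 h, against 57, 262 and 2493 counts in controls, with a log2 fold change of 1.34 ± 1.93 (SE). Socs7, a relative of Cish, had 89, 40 and 67 counts at 8 h, against 0, 2 and 10 counts in controls, groups that did not overlap in CPM (6.23% of tested rows were higher in this way). Its edgeR adjusted p was 0.51.

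Of 8 adaptors and cofactors 5 were tested, 2 above and 3 below 0, with Nmi at 265 ± 139 CPM at 8 h and 277 ± 237 CPM in controls, and Sh2b1 at 77.9 ± 84.1 against 60.7 ± 29.7 CPM (SD, n = 3 each). Of 15 targets 11 were tested, 5 above and 6 below 0, with a median log2 fold change of -1.10. Tnfrsf4, the costimulatory receptor OX40, had 1914, 559 and 15306 counts at 8 h, against 101932, 23274 and 10900 counts in controls, and Gfi1, a transcriptional repressor, had 7290, 6259 and 2425 against 288, 17369 and 897 counts. Lta, which encodes lymphotoxin alpha, had 17266, 131 and 631 counts at 8 h, against 14, 20 and 549 counts in controls (edgeR adjusted p = 0.543). Among the tested genes of the list, Irf9 and Prdm1 had a lower CPM in each 8 h library than in any control, as did 4.65% of all tested rows.

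**Figure D4:**
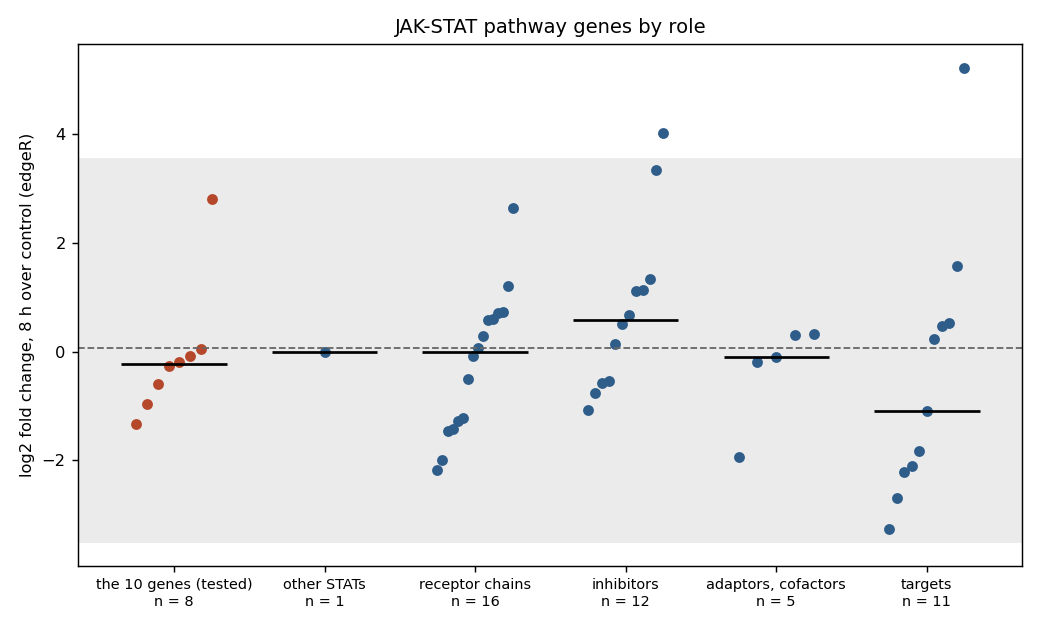
Log2 fold changes, 8 h over control (edgeR), of the 8 tested members (left) and of the 45 tested genes of the pathway list by role, with medians as lines. The grey band runs from the 5th to the 95th percentile of all tested rows (-3.51 to 3.55) and the dashed line marks their median (0.06). Cish is the highest member, and Socs7 among inhibitors and Lta among targets lie above the band.

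The pattern most like that of Cish, which also had the highest mean CPM of the members, was sought among the other 8307 tested rows. By Pearson's r of log2 (CPM + 1) over the 6 libraries, the closest were Kdm5b (r = 0.994), Epb41l4a (r = 0.985) and Jam3 (r = 0.982). Kdm5b had 16, 16 and 26 counts at 8 h and 7, 10 and 15 in controls. Epb41l4a had 26, 11 and 135 against 0, 10 and 1 counts, and Jam3 17, 4 and 78 against 2, 12 and 12. Each of these genes was highest in 8 h replicate 3, as was Cish, so the r values lean on that library. In all 77 rows reached an r of at least 0.9, all 6 points come from the same libraries as the Cish values, and these likenesses carry no test.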

How the data were processed

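The counts deposited by the authors are whole numbers in 1 table, with 13177 RefSeq accessions and 6 libraries. Per the labels' protocols, TruSeq libraries were read once over 50 bases. The submitters' processing notes name Bowtie, R 3.4.2 and GRCm38, without a role. Not given in the sources used here are the counting program, its annotation and its use of strand. Symbols came from RefSeq (GRCm38.p6, 12827 accessions) or GENCODE M21 (47 more), and 303 accessions stayed unnamed. Columns were matched by title, and 0 lay outside the series.

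CPM were computed over library totals. Fits used edgeR 4.0.16 in R 4.3.3 (TMM scaling, filterByExpr with 8308 rows kept, robust quasi-likelihood F test in its default form, Benjamini-Hochberg over all tested rows at 0.05). A standard error is the size of the log2 fold change divided by the root of F. Each tested member had 33232 degrees of freedom in the main fit, since edgeR pooled the variation over all tested rows. Such an error and its interval thus reflect the spread of rows of like abundance more than that of the gene's own libraries. limma 3.58.1 and DESeq2 1.42.0 served as alternatives, and the scripts were tested on simulated counts.

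Members and lists were chosen with earlier results of these data known. The text names all members, the 2 most abundant tested genes in each of 5 role groups, called genes, and the 3 genes most like Cish. Of other genes, those named were chosen after their values were seen.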

Additional observations from a re-analysis of the deposited data

How the results depend on the processing

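The count of called members was 0 under every alternative run (scalings, filters, DESeq2, limma-voom, the newer quasi-likelihood form, the replicate block) and 0 to 0 without each replicate. edgeR made 0 calls over the whole table too, so these counts say little about stability. DESeq2 called 399 rows of the whole table and 2 genes of the pathway list, against 0 by edgeR; the cause was not tested. The count for the pathway list was 0 under the other alternatives. Of 112 alternative log2 fold changes of the 8 tested members, 97 kept their direction and 15 did not, and 0 were called. For Jak2 the value was 0.014 with library totals only, 0.18 with limma-voom, 0.35 with the replicate block and -1.23 to 1.55 without each replicate. That of Tyk2 was -1.43 with limma-voom, -1.46 with the replicate block and -3.44 to 0.61 without each replicate. That of Stat5b was 0.077 with library totals only, 0.11 with the replicate block and -0.38 to 0.16 without each replicate. Without each replicate Stat5a ran from -0.55 to 0.21 and Stat6 from -1.02 to 0.66. Cish, Jak3 and Stat3 kept their direction in each alternative that gave a value, Cish from 0.23 to 3.83. Library totals only moved the median of all tested rows by 0.11. Leaving out a library moved it further in places, by -0.26 without 8 h replicate 2 and by 0.26 without control replicate 3. Means of CPM moved by less than 1 SD with TMM-scaled totals. Jak1 and Pim1 were tested only without a filter or without some of the libraries, and members below a filter gave no value there. Same-numbered libraries had residual correlations of -0.0107, 0.0151 and -0.0039, and not every library correlated best with its own number. Values this near 0 cannot decide whether same-numbered libraries share a source. Low counts left Jak1 and Pim1 outside the filtered test.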
